A study of Mus musculus with 16 samples.

Results

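AICAR was compared with vehicle in the gastrocnemius muscle of HSALR mice, with 10 of the 16 mice of the series, 5 that had received AICAR and 5 that had received vehicle. The mice were chosen by their labelled genotype (HSA transgene) and treatment (AICAR or CTRL). All were 3 months old, and AICAR was given at 500 mg/kg for 7 days. HSALR mice of the LR20b line are homozygous for a human skeletal actin transgene that carries long CTG repeats, are kept on the FVB/N strain, and express the repeat RNA in skeletal muscle fibres alone, so that they model the muscle fibre's part of myotonic dystrophy type 1 and not that of other tissues. The other 6 mice were FVB/N controls without the transgene, 3 after AICAR and 3 after vehicle, and were used to compare the AICAR effect between genotypes. The study's text does not describe the AICAR treatment, and neither the route nor the interval between the last dose and tissue collection was given in the sources used here.

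AICAR is a cell-permeable nucleoside that adenosine kinase phosphorylates to ZMP, an analogue of AMP. ZMP binds the gamma subunit of AMP-activated protein kinase (AMPK), the heterotrimeric kinase that senses low cellular energy and, in skeletal muscle, is known for promoting glucose uptake, fatty acid oxidation and the expression of mitochondrial genes. In myotonic dystrophy type 1, expanded repeat RNA sequesters the splicing factors of the MBNL family, and affected muscle relaxes slowly after contraction.

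The 10 HSALR libraries held between 64890014 and 81987726 counts, and TMM factors of the 16 libraries lay between 0.906 and 1.06. Values below are TMM-normalized CPM (counts scaled to library size) unless stated, mice are given in the order S451, S452, S453, S458 and S459 for vehicle and S454, S455, S460, S462 and S463 for AICAR, and a gene is said to have risen or fallen only where its Benjamini-Hochberg adjusted p-value was under 0.05 in edgeR. The muscle fibre marker list summed to 133791 to 166643 CPM after vehicle and 140153 to 159705 CPM after AICAR, and 1 of its 12 members passed the test, *Cacna1s*. In a piece of whole muscle, fewer cells of a type and less RNA per cell cannot be told apart.

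Of 15487 genes tested, 4121 (26.6%) differed between AICAR and vehicle in HSALR mice. Of these, 2114 were higher (13.7% of the genes tested) and 2007 lower (13.0%), and 261 rose and 485 fell by at least 2-fold. The groups did not overlap, with all AICAR mice above all vehicle mice, for 10.2% of the genes tested and, with all below, for 7.48%. With library-size scaling the calls were 1328 higher and 2962 lower, and with scaling to *Tbp* 697 higher and 2071 lower. The median over all genes was -0.02 on the log2 scale in the reported fit and -0.13 with scaling to *Tbp*, so that small shifts of whole gene groups have to be read against the scaling. These counts include genes of epidermal families, 69 of which were called lower and none higher, and genes whose level followed the epidermis markers, together 165 of the lower calls and 160 of the falls of at least 2-fold, with 3 of the higher calls among the latter kind. Both kinds are described apart at the end.

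The 12 genes with the largest rises were taken from called genes whose groups did not overlap, so their separation is part of the choice. Of these 12, 9 averaged below 3 CPM after vehicle. *Ifi30*, a lysosomal thiol reductase (chr8:70762773-70766663 in GRCm38.p6), stood at 6.6, 7.19, 6.6, 8.6 and 6.72 CPM after vehicle and at 141, 113, 111, 145 and 145 CPM after AICAR. The log2 fold change was 4.20 ± 0.16 (SE), adjusted p = 3.87e-10. *Aacs*, a cytosolic acetoacetyl-CoA synthetase that draws ketone bodies into lipid synthesis, was at 11, 6.44, 11.6, 16.8 and 7.64 CPM in the vehicle mice and at 132, 99.7, 68.8, 116 and 135 CPM in the AICAR mice. The AICAR mouse with the lowest value, S460, still lay about 4 times above the highest vehicle mouse, with a log2 fold change of 3.36 ± 0.31 (SE), adjusted p = 3.55e-06. The genes that rose from below 3 CPM were *Mast1* (log2 fold change 4.39), a microtubule-associated kinase, *Dlk1* (3.88), a non-canonical Notch ligand, *Cspg5* (4.36), *Rprml* (4.18), *Ttc25* (3.80), *Clec4d* (5.06), *Dgkeos* (3.96), *A930017M01Rik* (3.93) and *Cacna1i* (3.03), a T-type calcium channel subunit. Among abundant genes, *Nsun2*, an RNA cytosine methyltransferase, rose from 71.8, 86.7, 79.6, 69.7 and 77.7 CPM to 339, 307, 306, 350.1 and 362 CPM, a log2 fold change of 2.11 ± 0.10 (SE), adjusted p = 2.91e-09. It was among the 8 genes with the smallest p-values, together with *Ntsr2*, *Jpt1* and *Ubl4a*, which rose by 2.77, 2.29 and 1.06 on the log2 scale. *Ntsr2* overlaps *Lpin1* and *Ubl4a* overlaps *Gm44504* (0.98) in the annotation, and reads of such neighbours cannot be told apart here because strand use in counting is not given in the sources used here.

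The genes with the largest falls, epidermal genes aside, were likewise taken from called genes without overlap between the groups. They included the myogenic factor *Myod1* and the small GTPase *Rrad*. *Myod1*, which drives commitment to the muscle lineage (chr7:46376474-46379092 in GRCm38.p6), was at 45.6, 26.2, 43.9, 70.3 and 35.5 CPM after vehicle and 3.83, 2.81, 9.1, 8.14 and 8.6 CPM after AICAR. The log2 fold change was -2.77 ± 0.36 (SE), adjusted p = 8.01e-05. *Rrad*, an inhibitor of calcium channels and of glucose uptake in muscle cells, stood at 73.4, 48, 65.4, 33.5 and 55.1 CPM in vehicle mice and 7.6, 8.32, 26.1, 6.55 and 6.62 CPM in AICAR mice. The AICAR mouse S460 was about 3 times higher than the other 4, and the log2 fold change was -2.32 ± 0.36 (SE), adjusted p = 3.21e-04, or -2.92 (adjusted p = 9.35e-07) without that mouse. *Stmnd1* (log2 fold change -2.47) and *Pla2g2f* (-3.53), a secreted phospholipase known from epidermis, fell to below 1 CPM on average, and the call of *Pla2g2f* was lost with the epidermis score as a covariate (adjusted p = 0.269). *Crip3* (log2 fold change -4.01), *Kcnf1* (-2.64), a silent potassium channel subunit, the amino acid transporter *Slc6a19* (-2.53), *Prss55* (-2.51) and *Spon2* (-2.37) fell from group means between 2.05 and 6.32 CPM to means between 0.228 and 1.22 CPM. *Tceal7*, the only one of the 8 genes with the smallest p-values to fall, is described with the control mice. *Pla2g2f* was not called with S451 and S458 as the only vehicle mice.

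**Figure D1:**
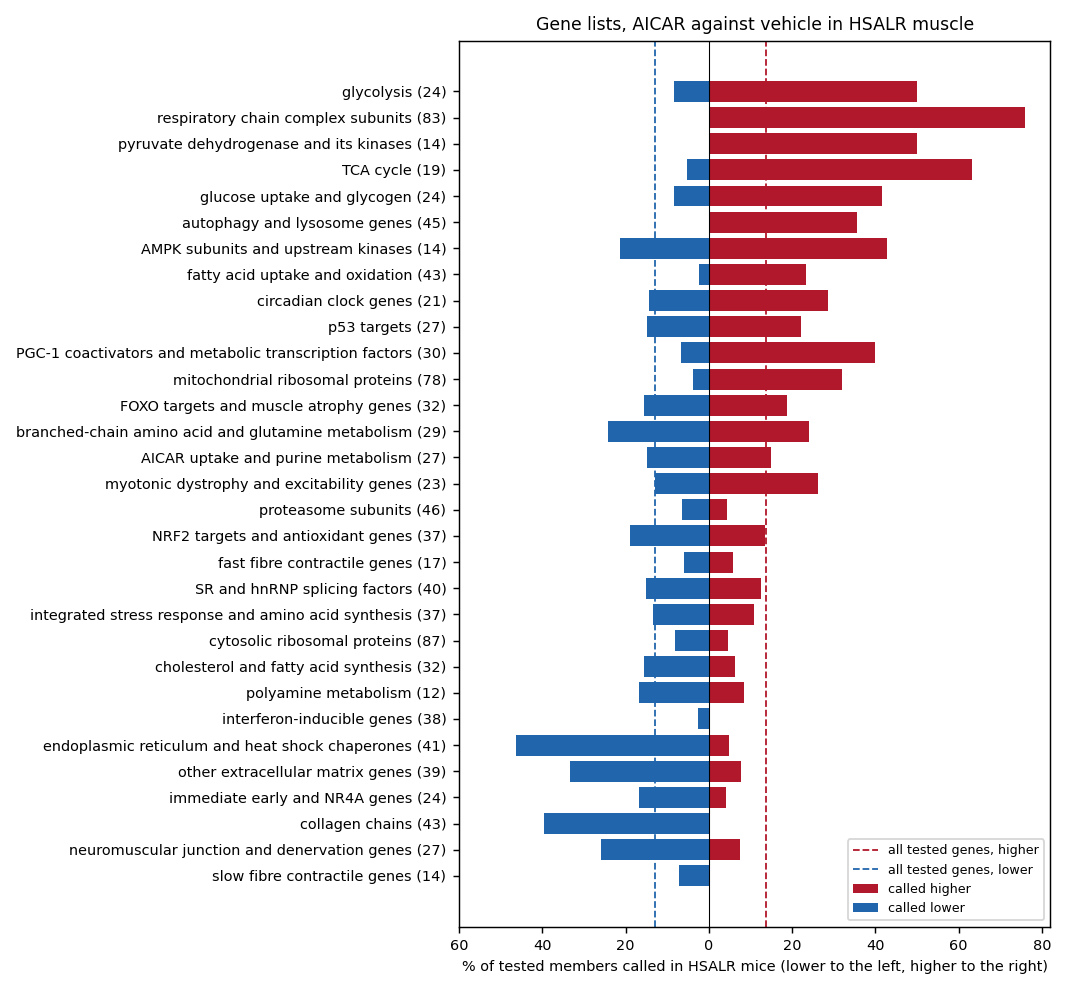
Share of the tested members of 31 gene lists that were called higher (red, to the right) or lower (blue, to the left) after AICAR in HSALR mice, in %, with lists in the order of their median log2 fold change and the number of tested members in parentheses. Dashed lines are the shares over all 15487 tested genes, 13.7% higher and 13.0% lower. Respiratory chain subunits reach 75.9% higher, chaperones 46.3% lower and collagen chains 39.5% lower.

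AMPK itself changed in its subunit transcripts. Of 14 AMPK subunits and upstream kinases, 6 rose and 3 fell, against 13.7% and 13.0% of all genes, and their median log2 fold change was 0.14. *Prkag3*, the gamma-3 subunit found mainly in fast glycolytic fibres (chr1:74738922-74749471 in GRCm38.p6), was at 159, 135, 213, 167 and 203 CPM after vehicle and 75.7, 68.8, 62.1, 41.4 and 51.6 CPM after AICAR. Every AICAR mouse lay below every vehicle mouse, and the log2 fold change was -1.55 ± 0.18 (SE), adjusted p = 3.61e-05. *Prkab2*, the main beta subunit of muscle, moved the other way, from 329, 346, 324, 243 and 289.7 CPM to 547, 496, 471, 482 and 530.1 CPM, again without overlap, by 0.72 ± 0.09 (SE), adjusted p = 7.57e-05. Per kilobase of gene length, *Prkag3* went from 61.9 ± 11.3 to 21.2 ± 4.81 CPM per kb (mean ± SD, n = 5), while the ubiquitous gamma-1 subunit *Prkag1* went from 29 ± 1.86 to 32.6 ± 0.907 and rose by 0.17 on the log2 scale. *Prkag3* was thus the more abundant gamma transcript per length after vehicle and *Prkag1* after AICAR. The catalytic subunits were at 44.8 ± 5.25 CPM per kb for *Prkaa2* and 6.02 ± 0.576 for *Prkaa1* after vehicle. *Prkaa2* rose by 0.23 on the log2 scale, a call that was lost in 9 of 10 fits without 1 HSALR mouse (adjusted p up to 0.0956), and *Prkaa1* fell by 0.28. *Prkab1* did not pass the test, at 0.20 with an adjusted p of 0.0752. *Prkag2* (0.48) and *Cab39* (0.42), which encodes the scaffold MO25 of the upstream kinase LKB1, rose, as did the pseudokinase *Strada* (0.25), and *Stk11*, which encodes LKB1 itself, fell by 0.18. With library-size scaling, the epidermis score as a covariate or S451 and S458 as the only vehicle mice 3 of the list rose (1 fell in the last), and with scaling to *Tbp* *Prkab2* remained the only riser of the list, and *Prkag3* and *Prkaa1* the only ones to fall. *Prkaa2*, *Prkaa1*, *Prkag2* and *Strada* were not called with the epidermis score as a covariate, nor were *Prkag1*, *Prkaa2*, *Prkag2*, *Cab39*, *Strada* and *Stk11* with scaling to *Tbp*, nor were *Prkag1*, *Prkaa2* and *Strada* with library-size scaling, nor were *Prkag1*, *Prkaa1*, *Prkag2*, *Strada* and *Stk11* with S451 and S458 as the only vehicle mice.

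Genes that handle AICAR and purine nucleotides were called at a rate close to the background, with 4 higher and 4 lower of 27 (14.8% each, against 13.7% and 13.0% of all genes). The transporter *Slc29a1*, through which AICAR enters cells, and the kinase *Adk*, which makes ZMP, did not pass the test, with log2 fold changes of 0.04 and 0.06 and adjusted p-values of 0.694 and 0.434. AMP deaminases moved in opposite directions. *Ampd1*, the muscle form, went from 947 ± 38.6 to 673 ± 51.4 CPM (mean ± SD, n = 5), a log2 fold change of -0.49, whereas *Ampd3* stood at 35.8, 38.6, 31.6, 27 and 30.3 CPM after vehicle and 61.1, 52.2, 55.5, 49.5 and 42.2 CPM after AICAR. *Ampd3* rose in every AICAR mouse above all vehicle mice (0.67 ± 0.14 (SE), adjusted p = 0.00243), and per kilobase *Ampd1* remained the more abundant form, at 287 ± 22 CPM per kb against 12.2 ± 1.65 after AICAR. *Xdh*, which oxidises purines to uric acid, was at 29.3, 28, 25.8, 36 and 23.1 CPM after vehicle and at 45.5, 44.1, 39.8, 48.6 and 49.5 CPM after AICAR, with no overlap and a log2 fold change of 0.68 ± 0.12 (SE), adjusted p = 9.77e-04. *Entpd1* (0.43), an ectonucleotidase, also rose, and *Adssl1* (-0.55), which makes adenylosuccinate in the purine nucleotide cycle of muscle, and the salvage enzyme *Hprt* (-0.28) fell.

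Genes of glucose uptake and glycogen storage rose more often than they fell, 10 against 2 of 24 (41.7% and 8.33%, against 13.7% and 13.0% of all genes). *Slc2a4*, which encodes the insulin- and contraction-responsive transporter GLUT4, was at 579, 619, 569, 656 and 635 CPM after vehicle and 816, 678, 672, 799 and 809 CPM after AICAR. The groups just failed to overlap, and the log2 fold change of 0.30 ± 0.07 (SE), adjusted p = 0.00386 was lost with scaling to *Tbp* (adjusted p = 0.209). *Hk2*, the hexokinase that traps glucose in muscle fibres, stood at 315, 381, 389, 324 and 364 CPM and then 988, 822, 642, 811 and 930.1 CPM. All AICAR mice exceeded all vehicle mice, by 1.24 ± 0.13 (SE), adjusted p = 1.24e-05. *Tbc1d1*, a Rab GTPase-activating protein and AMPK substrate that restrains GLUT4, was at 227, 279, 186, 194 and 181 CPM after vehicle and 499, 343, 328, 601 and 494 CPM after AICAR. This gene also rose without overlap, by 1.09 ± 0.22 (SE), adjusted p = 0.00188, and missed the threshold with the epidermis marker score as a covariate (adjusted p = 0.0516). The largest rise of the list was in *Ppp1r3c*, a subunit that targets protein phosphatase 1 to glycogen and favours its synthesis (chr19:36731731-36736604 in GRCm38.p6). Its values were 431, 589, 385, 394 and 199.9 CPM after vehicle and 1358, 877, 1259, 1145 and 1415 CPM after AICAR, with a log2 fold change of 1.60 ± 0.23 (SE), adjusted p = 1.58e-04. *Gbe1*, the glycogen branching enzyme, rose from 103 ± 4.2 to 207 ± 16.3 CPM (log2 fold change 1.01). Glycogen synthase *Gys1* and glycogen phosphorylase *Pygm* did not pass the test, at 0.05 (adjusted p = 0.642) and 0.20 (adjusted p = 0.106). *Slc2a1*, the basal transporter GLUT1, fell (-0.66), and the other member to fall was *Rrad*. *Slc2a4* was not called with S451 and S458 as the only vehicle mice.

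Glycolysis genes followed, with 12 of 24 higher and 2 lower and a median log2 fold change of 0.28. Over all genes 13.7% were higher and 13.0% lower. *Pfkfb3*, whose product makes the phosphofructokinase activator fructose 2,6-bisphosphate, was at 90.5, 139.7, 122, 42.2 and 115 CPM after vehicle and 397, 659.8, 329.9, 275 and 249.6 CPM after AICAR. The lowest AICAR mouse lay well above the highest vehicle mouse, with a log2 fold change of 1.91 ± 0.32 (SE), adjusted p = 5.54e-04. *Pfkm* (0.54), *Pkm* (0.53), *Gpi1* (0.87) and the lactate exporter *Slc16a3* (1.01) rose without overlap between the groups. *Gapdh* is a special case, listed at 25.8 ± 1.44 and 50.2 ± 5.39 CPM (log2 fold change 0.96). It has many processed copies in the genome, and reads with several equally good locations were assigned to a single one of them, so its level is uncertain. *Ldha* rose by 0.33 on the log2 scale (adjusted p = 0.021), a call lost in 1 of 10 fits without 1 HSALR mouse, with scaling to *Tbp* (adjusted p = 0.276) and with the epidermis score as a covariate (0.257), and *Ldhb* was at -0.36 (adjusted p = 0.171). The 2 members that fell, *Pfkfb4* (-0.72) and *Eno1* (-0.29), were not called in 5 and 6 of 10 fits without 1 HSALR mouse, nor with the epidermis score as a covariate or S451 and S458 as the only vehicle mice, and *Eno1* too has near-identical copies. Of 14 genes of the pyruvate dehydrogenase complex and its kinases, 7 rose and none fell, against 13.7% and 13.0% of all genes. The number higher was 6 with the epidermis score as a covariate and 2 with scaling to *Tbp*. The E1 subunits *Pdhb* (260.4 ± 9.55 to 463.3 ± 20.4 CPM, log2 fold change 0.83) and *Pdha1* (0.60) led, with *Dlat* (0.32), *Dld* (0.31) and the kinase *Pdk2* (0.23) behind them. *Pdk4*, the kinase that closes the complex in fasting, was spread widely in both groups, at 627, 587, 175, 216 and 184 CPM after vehicle and 118, 180.1, 363, 264 and 199.8 CPM after AICAR. Its groups overlapped, and the difference did not pass the test (-0.67 ± 0.37 (SE), adjusted p = 0.208). *Pdk2* was not called with the epidermis score as a covariate, nor were *Dlat*, *Dld* and *Pdk2* with scaling to *Tbp*, nor was *Ldha* with S451 and S458 as the only vehicle mice.

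**Figure D2:**
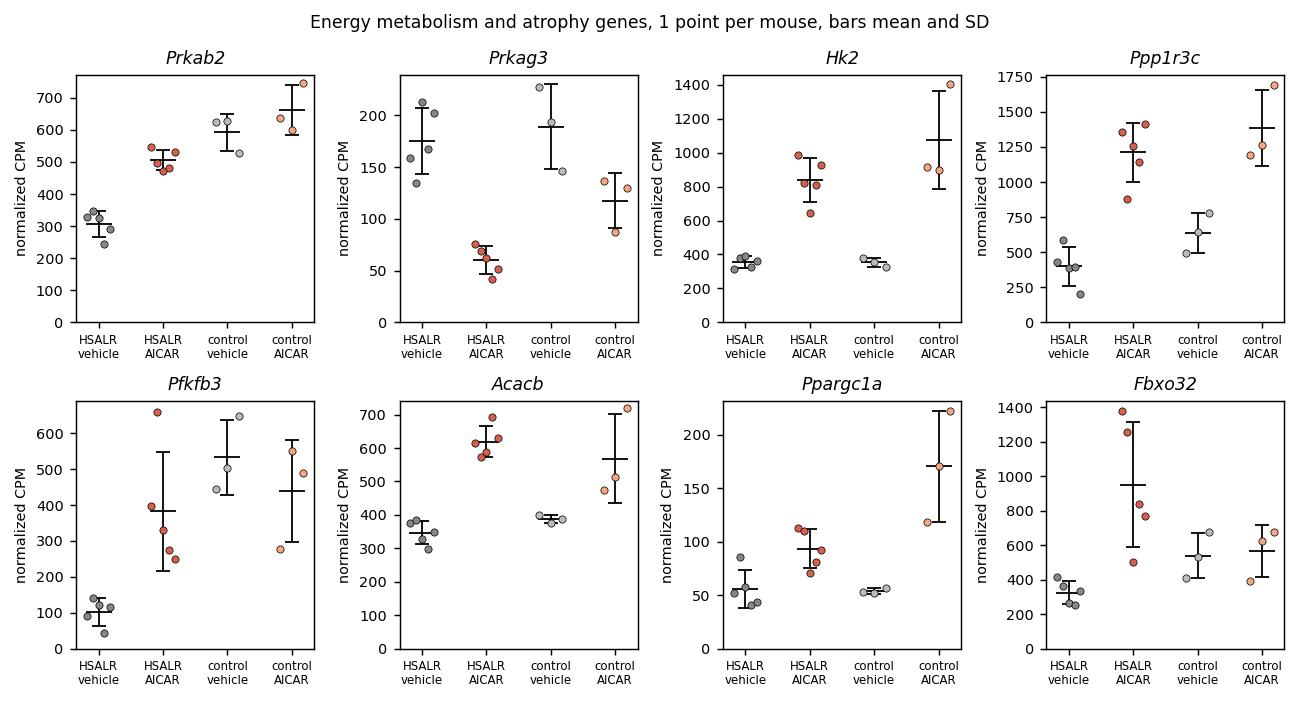
Normalized CPM of 8 genes in each mouse (points), with the mean and SD of each group (bars), for HSALR mice after vehicle and AICAR (n = 5 each) and control mice after vehicle and AICAR (n = 3 each). In HSALR mice *Prkab2*, *Hk2*, *Ppp1r3c*, *Pfkfb3*, *Acacb* and *Fbxo32* lie higher after AICAR in every mouse, *Prkag3* lies lower in every mouse, and *Ppargc1a* overlaps.

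Respiratory chain genes rose in most cases and by small amounts. Of 83 nuclear-encoded respiratory chain subunits, 63 rose and none fell (75.9% against 13.7% of all genes), with a median log2 fold change of 0.25 and a range from -0.15 to 0.61. *Atp5g1*, a subunit of the ATP synthase c ring, had the largest rise, from 163, 157, 151, 169.6 and 168 CPM to 247, 258, 220.5, 249.9 and 259 CPM. The groups were far apart, at 0.61 ± 0.06 (SE), adjusted p = 3.32e-06. *Cox7a1*, the muscle form of a cytochrome c oxidase subunit, was at 167, 172, 152, 184 and 178 CPM after vehicle and 239, 247, 228, 247 and 243 CPM after AICAR. It too rose without overlap (0.50 ± 0.07 (SE), adjusted p = 1.23e-04). Representative subunits of complexes I, III, IV and V rose by 0.22 (*Ndufa9*), 0.35 (*Uqcrc1*), 0.34 (*Cox4i1*) and 0.38 (*Atp5b*). The median of the subunits depended on scaling, at 0.18 with library-size scaling and 0.14 with scaling to *Tbp*, against 0.25 in the reported fit. Library-size scaling left 40 members higher, the epidermis score as a covariate 39, S451 and S458 as the only vehicle mice 40, and scaling to *Tbp* 2, with medians above 0 in each and no member lower. Genes of the TCA cycle rose more often than they fell, with 12 of 19 higher (63.2%), 1 lower (5.26%) and a median of 0.24. Over all genes the shares were 13.7% higher and 13.0% lower, and 1 TCA cycle gene rose with scaling to *Tbp*. *Ogdh* (0.46) and *Mdh2* (0.41) led them, and citrate synthase *Cs* rose by 0.15, a call that 5 of 10 fits without 1 HSALR mouse did not make. *Idh2* fell by 0.48, lost in 8 of those fits. Mitochondrial ribosomal proteins rose in 25 of 78 cases (32.1%, against 13.7% of all genes) and fell in 3 (3.85%, against 13.0%, and 1 without S455, S458, S459 or S462). Their median was 0.09 and turned to -0.03 with scaling to *Tbp*, where 1 rose and 2 fell. The number of these that rose was 9 with library-size scaling (6 fell), 12 with the epidermis score as a covariate and 10 with S451 and S458 as the only vehicle mice (1 fell). *Mrpl50* (56.4 ± 1.04 to 80.2 ± 3.81 CPM, log2 fold change 0.51) and *Mrpl42* (0.42) rose most. *Ndufa9*, *Cs* and *Idh2* were not called with the epidermis score as a covariate, nor were *Ndufa9*, *Uqcrc1*, *Cox4i1*, *Atp5b*, *Mdh2*, *Cs* and *Mrpl42* with scaling to *Tbp*, nor were *Ndufa9* and *Cs* with library-size scaling, nor were *Ndufa9*, *Cs* and *Idh2* with S451 and S458 as the only vehicle mice.

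Of fatty acid genes, 10 of 43 were higher (23.3%, against 13.7% of all genes) and 1 lower (3 lower without S462), with 5 higher with scaling to *Tbp* and 6 with the epidermis score as a covariate, and a median of 0.11, which fell to 0 within rounding with scaling to *Tbp*. *Acacb*, the acetyl-CoA carboxylase whose product malonyl-CoA holds back mitochondrial fatty acid entry and which AMPK phosphorylates, was at 376, 384, 327, 299 and 349 CPM after vehicle and 615, 572, 587, 694 and 629.8 CPM after AICAR. Its groups did not overlap, with a log2 fold change of 0.84 ± 0.10 (SE), adjusted p = 4.72e-05. *Acsl6*, a long-chain acyl-CoA synthetase (0.90), and the lipid droplet proteins *Plin3* (0.58) and *Plin4* (0.57) rose. Among the other core genes, *Cpt1b* (0.15), the fatty acid transporter *Cd36* (0.19), *Lpl* (-0.41), *Ucp3* (0.23) and *Angptl4* (0.05) did not pass the test, with adjusted p-values from 0.0712 (*Lpl*) to 0.952 (*Angptl4*). *Ucp2*, a mitochondrial carrier of other tissues and of immune cells, fell from 63.8 ± 14 to 32.6 ± 5.76 CPM (-0.97). Of 30 PGC-1 coactivators and metabolic transcription factors, 12 rose and 2 fell (1 fell without S451, S452, S454 or S463 and 4 without S458). The balance was near even with library-size scaling, at 6 higher and 5 lower, and with scaling to *Tbp*, at 4 and 3, whereas 7 rose and 1 fell with the epidermis score as a covariate and 4 fell with upper-quartile scaling. *Ppargc1a*, which encodes PGC-1alpha, the coactivator of mitochondrial biogenesis, stood at 51.9, 86, 57.3, 40.6 and 43.7 CPM after vehicle and 112, 110.4, 71, 80.6 and 92.4 CPM after AICAR. The groups overlapped through the vehicle mouse S452 and the AICAR mice S460 and S462, and the log2 fold change was 0.74 ± 0.20 (SE), adjusted p = 0.0138. *Ppargc1b*, at -0.37 (adjusted p = 0.0785), and *Tfam*, at 0.04 (adjusted p = 0.662), did not pass the test. *Esrra* (0.20) and *Ppard* (0.34) rose by amounts that were not called in 4 and 6 of 10 fits without 1 HSALR mouse, nor with the epidermis score as a covariate (adjusted p = 0.269 and 0.0998) or scaling to *Tbp* (0.578 and 0.256). The largest rises of this list were in folliculin and its partner *Fnip2*, which regulate AMPK and nutrient signalling at the lysosome. *Flcn* was at 61, 70, 66, 54.2 and 59.8 CPM after vehicle and 164, 147, 112, 87.3 and 106 CPM after AICAR, a separation of 0.99 ± 0.15 (SE), adjusted p = 2.22e-04. *Fnip2*, at 9.35, 10.9, 9.21, 6.98 and 6.85 CPM and then 23.1, 18.5, 17.9, 12.1 and 13.5 CPM, also rose in every mouse (0.98 ± 0.21 (SE), adjusted p = 0.0036), and *Fnip1* rose by 0.69, lost in 2 of 10 fits without 1 HSALR mouse. *Tfeb*, the transcription factor that drives lysosomal genes, fell from 123.2 ± 13.2 to 75.2 ± 5.66 CPM (-0.71). *Plin4* was not called with the epidermis score as a covariate, nor was *Fnip1* with scaling to *Tbp*, nor were *Esrra* and *Ppard* with library-size scaling, nor were *Plin3* and *Esrra* with S451 and S458 as the only vehicle mice.

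Lysosomal genes that passed the test all rose. Of 45 autophagy and lysosome genes, 16 rose (35.6%, against 13.7% of all genes) and none fell (against 13.0%), with a median log2 fold change of 0.15. *Atp6v1a*, the catalytic subunit of the proton pump, was at 39.6, 43.6, 44.7, 33.7 and 38.8 CPM after vehicle and 71.8, 72.1, 57.9, 49.4 and 48.6 CPM after AICAR. The groups did not overlap (0.58 ± 0.12 (SE), adjusted p = 0.00304). *Npc1* (0.80), the cholesterol exporter of lysosomes, *Gpnmb* (0.66), *Cd63* (0.64), *Lamp1* (0.29) and the protease *Ctsb* (0.25) rose, and the autophagy initiator *Becn1* was at 0.07 (adjusted p = 0.195). The number higher was 10 with library-size scaling, 5 with scaling to *Tbp*, 9 with the epidermis score as a covariate and 7 with S451 and S458 as the only vehicle mice. *Lamp1* and *Ctsb* were not called with scaling to *Tbp*, nor was *Ctsb* with library-size scaling, nor was *Ctsb* with S451 and S458 as the only vehicle mice.

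Promoters of the genes that moved together were searched for 18 short motifs on both strands, in windows of 250 bases before and 50 after each RefSeq start in GRCm38.p6, which covered 12103 of the 15487 tested genes. TCACGTGA, the palindromic CLEAR element that TFEB and its relatives bind and which contains the E-box CACGTG, was found in 7 of 34 lysosomal genes with a promoter, 4 of them called higher, and in 2.02% of all tested genes. It also stood before *Ppp1r3c*. Over all tested genes, 69 of the 244 with this element were called in either direction, against 26.6% of all genes tested. TCAAGGTCA, the element of estrogen-related receptors, was in 2 of 67 respiratory chain genes and in 1 of 35 fatty acid genes, *Acsl6*, against 0.322% of all genes. The heat shock element (GAA, TTC and GAA with 2 free bases between each) was in 4 of 32 chaperones (0.595% of all genes), 2 of which fell, *Hsph1* and *Hspe1*. Over all tested genes, 23 of the 72 with it were called in either direction. *Hspe1* faces *Hspd1*, another of the 4, across a shared promoter, so that the same bases were counted for both. A choice of these sites in genes that moved is shown to let the shared letters be compared, each 30 bases, 5′ to 3′ on the strand of the gene, with the motif or its reverse complement in capitals. A match is a string of letters and not a measured binding site.
*Atp6v1a*, chr16:44139373-44139402 (-): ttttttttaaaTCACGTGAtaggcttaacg
*Atp6v0d1*, chr8:105566050-105566079 (-): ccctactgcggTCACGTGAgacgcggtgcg
*Ctsd*, chr7:142387908-142387937 (-): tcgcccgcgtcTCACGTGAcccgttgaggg
*Mcoln1*, chr8:3500462-3500491 (+): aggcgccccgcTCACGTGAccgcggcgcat
*Ppp1r3c*, chr19:36736691-36736720 (-): gagggaccggtTCACGTGAtctggctttga
*Acsl6*, chr11:54303646-54303675 (+): ggcctccaaccTGACCTTGAgcattcttat
*Atp5g3*, chr2:73911360-73911389 (-): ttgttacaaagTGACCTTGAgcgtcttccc
*Hsph1*, chr5:149636280-149636309 (-): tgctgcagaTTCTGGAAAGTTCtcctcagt
*Hspe1*, chr1:55088055-55088084 (+): tccgttctaGAACCTTCCGGAAggccccgc
The 4 lysosomal genes shown rose by 0.58 (*Atp6v1a*), 0.39 (*Atp6v0d1*), 0.23 (*Ctsd*, lost in 3 of 10 fits without 1 HSALR mouse) and 0.25 (*Mcoln1*) on the log2 scale, and the bases around the shared 8 letters differed between them. Of these, *Atp6v0d1*, *Ctsd* and *Mcoln1* were not called with the epidermis score as a covariate or with scaling to *Tbp*, nor were *Atp6v0d1* and *Ctsd* with S451 and S458 as the only vehicle mice.

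Few contractile genes passed the test. Of 14 slow fibre genes, only *Sln* passed it (7.14%), and of 17 fast fibre genes 1 rose and 1 fell (5.88% each, and 3 fell with library-size scaling). Over all genes 13.7% rose and 13.0% fell. *Myh4*, the myosin heavy chain of the fastest fibres, was at 5915 ± 1147 CPM per kb after vehicle and 6036 ± 709 after AICAR (mean ± SD, n = 5), ahead of *Myh1* (2087 ± 539 and 2626 ± 344), *Myh2* (517 ± 85.3 and 479 ± 94.8) and the slow form *Myh7* (169 ± 24.7 and 155 ± 65.5). Their log2 fold changes were 0.03, 0.33, -0.11 and -0.12, with adjusted p-values of 0.915, 0.132, 0.663 and 0.814. The slow troponins *Tnnt1* (-0.45), *Tnni1* (-0.53) and *Tnnc1* (-0.57) all had values below 0 without passing the test, and the median of the slow list was -0.42. With the epidermis score as a covariate that median was -0.04 and no slow fibre gene was called, *Sln* included. The members that did move were *Sln* (258 ± 81.5 to 105 ± 26.6 CPM, log2 fold change -1.29), which encodes sarcolipin, an inhibitor of the calcium pump, *Pvalb* (7085 ± 1063 to 4260.5 ± 566 CPM, -0.73), the calcium buffer of fast fibres, and *Mybpc2* (0.59), the fast myosin-binding protein C, which rose.

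Genes of the neuromuscular junction and of the response to denervation fell more often than they rose, with 7 lower and 2 higher of 27 (25.9% and 7.41%, against 13.0% and 13.7% of all genes, and 4 higher without S463, 5 lower with the epidermis score as a covariate and 4 lower with S451 and S458 as the only vehicle mice) and a median log2 fold change of -0.37. *Myog*, the myogenic factor that denervation induces, was at 31.5, 23.8, 22.7, 21.7 and 21.2 CPM after vehicle and 7.36, 7.6, 12.5, 11.2 and 8.09 CPM after AICAR. All AICAR mice lay below all vehicle mice (-1.37 ± 0.18 (SE), adjusted p = 8.01e-05). *Chrng*, the fetal acetylcholine receptor subunit that reappears on denervation, was scarce, at 0.821, 0.816, 0.771, 1.33 and 0.8 CPM and then 0.233, 0.384, 0.498, 0.312 and 0.26 CPM. It fell without overlap (-1.42 ± 0.37 (SE), adjusted p = 0.0115), a call lost with the epidermis score as a covariate (adjusted p = 0.0798). The adult subunit genes *Chrne*, at -0.37 (adjusted p = 0.0567), and *Chrna1*, at 0.34 (adjusted p = 0.0752), and the kinase *Musk*, at 0.23 (adjusted p = 0.451), did not pass the test. The agrin receptor *Lrp4* (-0.96) and *Gadd45a* (-0.93), which rises in denervated muscle, fell, and *Rapsn* (0.55), the scaffold that clusters receptors, rose. *Hdac4*, the deacetylase that links denervation to *Myog*, rose from 73.4, 85.3, 85.4, 47.3 and 60.5 CPM to 135, 117, 106, 112 and 115 CPM, in every mouse (0.73 ± 0.15 (SE), adjusted p = 0.00249). Among satellite cell markers, *Pax7* (-0.70) fell with *Myod1*, and 1 of the 8 markers rose. *Pax7* was not called with S451 and S458 as the only vehicle mice.

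*Dmpk*, the gene whose repeat expansion causes myotonic dystrophy type 1 in people (chr7:19083646-19093821 in GRCm38.p6), was at 382, 379, 322, 412 and 372 CPM after vehicle and 197, 163, 184, 222.1 and 199 CPM after AICAR. Its groups were well separated, with a log2 fold change of -0.95 ± 0.08 (SE), adjusted p = 1.40e-06. The neighbouring *Six5* fell as well (-0.78). The repeat RNA of HSALR mice comes from the actin transgene, which has no row of its own among the genes used here, so these values do not describe the level of the repeat. *Mbnl2*, a splicing factor sequestered by the repeat, stood at 224, 268, 248, 163 and 188 CPM and then 354, 353, 286, 344 and 350.3 CPM. The AICAR mouse S460 was the lowest of its group and still above all vehicle mice (0.63 ± 0.13 (SE), adjusted p = 0.00322). *Mbnl1* (-0.02, adjusted p = 0.877) and *Celf1* (0.20, adjusted p = 0.0827) did not pass the test. *Clcn1*, the chloride channel whose loss causes myotonia, was at 79.7, 80.4, 85.8, 79.6 and 108 CPM after vehicle and 105, 109, 106, 112 and 101 CPM after AICAR. The vehicle mouse S459 lay within the AICAR range, and the rise of 0.30 ± 0.10 (SE), adjusted p = 0.0315 was lost in 7 of 10 fits without 1 HSALR mouse, with an adjusted p of up to 0.0743. In all, 6 of the 23 genes of this list rose (26.1%) and 3 fell (13.0%, as among all genes), with 5 and 5 under library-size scaling, 2 and 3 under scaling to *Tbp* and 3 and 3 with the epidermis score as a covariate. *Kcnj12* (0.43), an inward rectifier potassium channel, and *Camk2b* (0.33) rose, whereas *Camk2d* fell from 147, 132, 131, 121 and 146 CPM to 89.7, 93.9, 127, 82.6 and 95.6 CPM, with the AICAR mouse S460 reaching the vehicle range (-0.47 ± 0.10 (SE), adjusted p = 0.00355). Splicing was not analysed here, since the counts are sums over whole genes. Of 40 SR and hnRNP splicing factors, 5 rose (12.5%) and 6 fell (15.0%), close to the 13.7% and 13.0% of all genes, or 2 and 12 with library-size scaling. Of them 1 rose with the epidermis score as a covariate, none with scaling to *Tbp*, 2 with upper-quartile scaling and 3 with only the HSALR mice in the fit. *Srsf7* (-0.41) and *Tra2b* (-0.41) were lower, and the number higher was 2 or 3 without S451, S454, S455, S458 or S459. *Clcn1* was not called with the epidermis score as a covariate, nor were *Clcn1* and *Camk2b* with scaling to *Tbp*, nor were *Camk2d*, *Srsf7* and *Tra2b* with S451 and S458 as the only vehicle mice.

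Among 32 FOXO targets and atrophy genes, 6 rose (18.8%) and 5 fell (15.6%), which lies near the 13.7% and 13.0% of all genes. *Fbxo32*, the ubiquitin ligase atrogin-1, was at 415, 364, 263, 250.02 and 333 CPM after vehicle and 1381, 1259.6, 504, 842 and 768 CPM after AICAR. Values varied between AICAR mice, but all stayed above all vehicle mice (1.55 ± 0.25 (SE), adjusted p = 4.83e-04). The partner ligase *Trim63* was at 249, 256, 242, 281 and 265 CPM after vehicle and 553, 489.8, 644, 227 and 212 CPM after AICAR. Of the AICAR mice, 3 lay well above and 2 below all vehicle mice, and the difference missed the threshold (0.72 ± 0.26 (SE), adjusted p = 0.055). *Foxo3* rose (0.68), *Foxo1* (0.21, adjusted p = 0.624) and the glucocorticoid target *Klf15* (0.18, adjusted p = 0.573) did not pass, and *Foxo6* fell (-1.55). The metallothioneins, which bind zinc and copper and rise in wasting muscle, had the largest values of the list. *Mt2* was at 6.19, 9.05, 5.35, 8.99 and 3.88 CPM and then 71.6, 57, 84.1, 21.4 and 26.2 CPM. The AICAR mice fell into a wide range that began above all vehicle mice (2.96 ± 0.44 (SE), adjusted p = 2.24e-04), and *Mt1* rose by 2.79. *Fst*, the myostatin inhibitor follistatin, fell (-0.89), as did *Igfbp5* (-0.76). Of 46 proteasome subunits, 2 rose (4.35%, 1 without S451, S453, S454 or S458) and 3 fell (6.52%, 1 without S452, S453, S459, S462 or S463), with a range from -0.44 to 0.18 on the log2 scale. In other fits none rose and 7 fell with library-size scaling, none rose with scaling to *Tbp*, none rose and 1 fell with the epidermis score as a covariate, 5 fell with upper-quartile scaling and 1 fell with S451 and S458 as the only vehicle mice.

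Chaperones fell far more often than they rose. Of 41 chaperones of the endoplasmic reticulum and of the heat shock response, 19 fell and 2 rose (46.3% lower, against 13.0% of all genes), and 16 to 22 fell when single mice were left out. *Hspb1*, a small heat shock protein of the Z-disc (chr5:135887919-135889563 in GRCm38.p6), was at 247, 256, 216, 217 and 165 CPM after vehicle and 82.1, 68, 101, 74.8 and 62.5 CPM after AICAR. The groups were far apart (-1.51 ± 0.15 (SE), adjusted p = 7.13e-06). The inducible *Hspa1a* stood at 101, 51.4, 31.8, 17.1 and 16 CPM and then 5.92, 6, 7.9, 12.8 and 8.81 CPM. Vehicle mice ranged over more than 6-fold, and the lowest of them lay just above the highest AICAR mouse (-2.39 ± 0.50 (SE), adjusted p = 0.00265). Its near-identical neighbour *Hspa1b* (-2.34) shares reads with it, so the split between the copies is uncertain. *Hsph1*, which carries the heat shock element shown above, fell from 111, 86.8, 98.6, 86.6 and 85.2 CPM to 61.5, 61.9, 61.9, 62.3 and 53.5 CPM (-0.64 ± 0.10 (SE), adjusted p = 4.92e-04). *Hspb7* (1236 ± 104 to 624 ± 97.7 CPM, -0.99) fell too. The endoplasmic reticulum chaperones *Hspa5*, at -0.13 (adjusted p = 0.32), and *Hsp90b1*, at 0.07 (adjusted p = 0.535), did not pass the test, and the 2 that rose were *Canx* (0.25) and the mitochondrial *Hspa9* (0.23). *Canx* and *Hspa9* were not called with scaling to *Tbp*, nor was *Canx* with library-size scaling.

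The integrated stress response, the programme of *Atf4*, was called at the rate of all genes, with 4 of 37 genes higher (10.8%) and 5 lower (13.5%), against 13.7% and 13.0% of all genes, and with 8 lower with library-size scaling and 2 higher with scaling to *Tbp*. *Atf4* itself fell from 207 ± 12.5 to 153 ± 15.7 CPM (-0.43) and *Atf5* with it (-0.60). Its usual targets *Asns* (0.45), *Trib3* (-0.08) and *Ddit3* (-0.45) did not pass the test, with adjusted p-values of 0.114, 0.834 and 0.0503, and *Fgf21* was too scarce to be tested, below 0.1 CPM on average in both groups. *Stc2*, a secreted glycoprotein of stressed cells, rose from 2.7, 1.93, 2.28, 2.19 and 2.88 CPM to 12.4, 9.9, 23.6, 6.27 and 6.67 CPM. The lowest AICAR mouse was more than 2 times above the highest vehicle mouse (2.30 ± 0.32 (SE), adjusted p = 1.53e-04). The heavy chain *Slc3a2* of amino acid exchangers (0.35), the one-carbon enzyme *Shmt2* (0.25) and the lipoprotein receptor *Vldlr* (0.79) rose. Of 37 NRF2 targets and antioxidant genes, 5 rose (13.5%) and 7 fell (18.9%), with 11 lower with library-size scaling, 4 lower with the epidermis score as a covariate, and 3 higher with scaling to *Tbp* or with S451 and S458 as the only vehicle mice. *Hmox1*, heme oxygenase, rose from 6.45 ± 1.44 to 13.4 ± 4.41 CPM (1.05) with *Pgd* (0.76), while *Gstm2* (-0.64), *Srxn1* (-0.63) and *Gclm* (-0.51) fell, and *Nqo1* (-0.24) and *Gclc* (0.06) did not pass (adjusted p = 0.0584 and 0.661). Of 27 p53 targets 6 were higher (22.2%) and 4 lower (14.8%, near the share of all genes), 1 of the latter set apart with the epidermal genes, and with 3 higher and 5 lower under library-size scaling, 3 and 2 with the epidermis score as a covariate, 2 and 1 with S451 and S458 as the only vehicle mice, and 1 higher with scaling to *Tbp*. *Cdkn1a*, the cell cycle inhibitor p21, was at 104, 99.7, 111, 83.1 and 92.6 CPM after vehicle and 35.5, 46.7, 86.2, 27.5 and 23.9 CPM after AICAR. Mouse S460 alone reached the vehicle range (-1.16 ± 0.28 (SE), adjusted p = 0.00658), and the call was lost with the epidermis score as a covariate (adjusted p = 0.0705). *Eda2r*, a receptor that rises in wasting and ageing muscle, fell from 204 ± 37.7 to 102 ± 29 CPM (-1.01), and *Phlda3* (0.59), *Sesn1* (0.57) and *Trp53* itself (0.29) rose. Of 12 polyamine genes 1 rose (8.33%) and 2 fell (16.7%), against 13.7% and 13.0% of all genes. The spermidine synthase *Srm* rose (0.40), and *Azin1* (137 ± 20.6 to 64.8 ± 15.9 CPM, -1.08), an activator of ornithine decarboxylase, and *Sms* (-0.45) fell, while *Odc1* (-0.20, adjusted p = 0.167), *Sat1* (0.04, adjusted p = 0.801) and *Smox* (-0.08, adjusted p = 0.827) did not pass. *Phlda3*, *Trp53* and *Srm* were not called with the epidermis score as a covariate, nor were *Slc3a2*, *Shmt2*, *Sesn1*, *Trp53* and *Srm* with scaling to *Tbp*, nor were *Shmt2*, *Hmox1*, *Cdkn1a*, *Sesn1*, *Trp53* and *Srm* with S451 and S458 as the only vehicle mice.

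*Arntl*, the core activator BMAL1, stood at 31.8, 30.2, 20.2, 11.6 and 8.93 CPM and then 8.52, 7.29, 12, 8.8 and 10.5 CPM. The vehicle mice fell into a high set (S451, S452 and S453) and a pair within the AICAR range (S458 and S459), with a log2 fold change of -1.13 ± 0.29 (SE), adjusted p = 0.0104. The repressor *Nr1d1*, which overlaps *Thra* on the other strand, fell (-1.05), as did *Npas2* (-1.45), and *Bhlhe41* rose (1.20). Both falls missed the threshold with the epidermis score as a covariate (adjusted p = 0.0522 and 0.0522). *Dbp* (-0.24), *Per1* (0.05) and *Per2* (0.11) did not pass (adjusted p = 0.618, 0.94 and 0.814). The hour of collection is not given in the sources used here, so a difference in hour between groups cannot be told apart from treatment for these genes. In all, 6 of 21 clock genes rose (28.6%) and 3 fell (14.3%), against 13.7% and 13.0% of all genes, 5 fell without S460, 4 rose and 1 fell with the epidermis score as a covariate, and 3 rose with scaling to *Tbp*. *Nr4a3*, an orphan receptor induced by exercise, was at 14.7, 22.7, 21.3, 23.7 and 7.05 CPM after vehicle and 147, 99.4, 137, 44.4 and 97.1 CPM after AICAR. It was the only one of 24 immediate early and NR4A genes to rise (2.55 ± 0.55 (SE), adjusted p = 0.00318), and missed the threshold with the epidermis score as a covariate (adjusted p = 0.0679). Another 4 fell (16.7%), among them *Egr3* (-1.46) and *Jund* (-0.77), and without the AICAR mouse S460 the number that fell was 10, while it was 2 with the epidermis score as a covariate or with S451 and S458 as the only vehicle mice. *Nr4a1* (0.39), *Fos* (-0.77), *Egr1* (-0.04) and *Jun* (0.05) did not pass, with adjusted p-values of 0.596, 0.0692, 0.924 and 0.869. *Nr1d1* and *Nr4a3* were not called with S451 and S458 as the only vehicle mice.

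**Figure D3:**
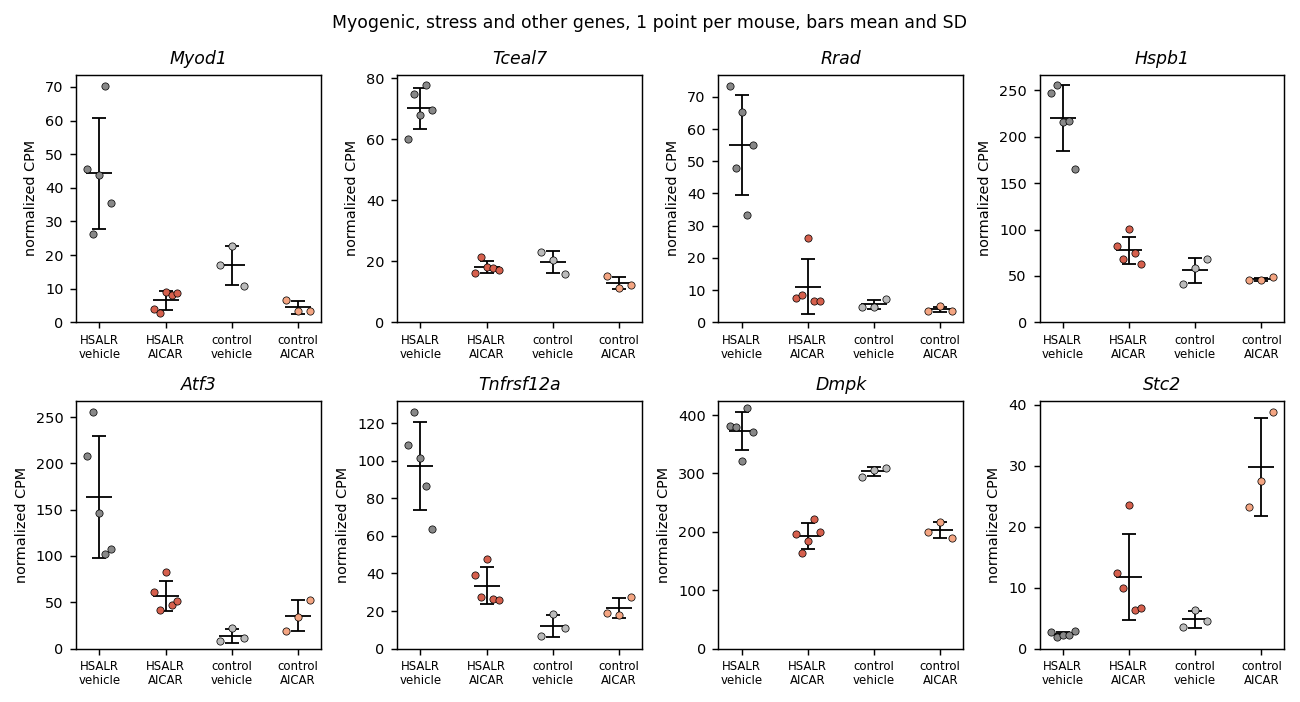
Normalized CPM of 8 genes in each mouse (points), with the mean and SD of each group (bars), for HSALR mice after vehicle and AICAR (n = 5 each) and control mice after vehicle and AICAR (n = 3 each). In HSALR mice *Myod1*, *Tceal7*, *Rrad*, *Hspb1*, *Atf3*, *Tnfrsf12a* and *Dmpk* lie lower after AICAR in every mouse and *Stc2* higher.

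Extracellular matrix genes fell more often than they rose. Of 43 collagen chains tested, 17 fell and none rose (2 rose without S451, 39.5% lower, against 13.0% of all genes), with a median log2 fold change of -0.35. *Col1a1*, of the main fibrillar collagen, was at 259, 155, 212, 249 and 162 CPM after vehicle and 107, 150.4, 100.03, 86.5 and 103 CPM after AICAR. The highest AICAR mouse, S455, lay just under the lowest vehicle mouse (-0.92 ± 0.23 (SE), adjusted p = 0.00848). *Col3a1* stood at 530.5, 391, 453.3, 381 and 342 CPM and then 244, 364, 226, 190.0 and 189 CPM, with S455 again the highest AICAR mouse and inside the vehicle range (-0.79 ± 0.21 (SE), adjusted p = 0.0125). *Col1a2* (-0.65) and *Col6a1* (-0.46) fell, and *Col4a1* of basement membranes was at 0.31 (adjusted p = 0.145). One of the 17, *Col17a1*, is an epidermal collagen and moved with the epidermal genes described below. The number that fell was 10 without S462, 11 without S463, 11 without S453, 11 with limma voom, 11 with the epidermis score as a covariate and 10 with S451 and S458 as the only vehicle mice. Of 39 other matrix genes, 13 fell (33.3%, against 13.0% of all genes) and 3 rose (7.69%, against 13.7%), with 1 higher with library-size scaling, scaling to *Tbp*, the epidermis score as a covariate or S451 and S458 as the only vehicle mice. *Ccn2*, a matricellular protein of fibrosis (55.5 ± 16.8 to 26.6 ± 6.87 CPM, -1.06), the protease inhibitor *Timp1* (-1.17) and fibrillin *Fbn1* (-0.85) fell, *Timp3* rose (0.51), and fibronectin *Fn1* (-0.49) and *Sparc* (-0.33) did not pass (adjusted p = 0.0562 and 0.178). Fibroblast markers fell too, with 5 of 11 lower, 2 of which are collagens of the list above, and summed to 3162 to 3935 CPM after vehicle and 2872 to 3538 CPM after AICAR. These markers also share members with the 39 other matrix genes, so the lists are not independent. Their part in the result was not tested. *Scx*, a tendon transcription factor, rose (1.02) while 3 of the 8 tenocyte markers fell, or 1 without S453, S454, S455, S458 or S462 and 1 with the epidermis score as a covariate. *Timp1* was not called with the epidermis score as a covariate, nor was *Col3a1* with S451 and S458 as the only vehicle mice.

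Endothelial markers rose in 4 of 12 cases (33.3%, against 13.7% of all genes, 2 of 12 with scaling to *Tbp* or with the epidermis score as a covariate and 1 with S451 and S458 as the only vehicle mice), and every AICAR mouse lay above every vehicle mouse in their sum, with sums of 317 to 377 CPM after vehicle and 384 to 398 CPM after AICAR. The sums of 10 smooth muscle and pericyte markers did not overlap either, at 4169 to 4689.6 CPM after vehicle and 4759 to 5318 CPM after AICAR. Their members did not share a direction, with 5 of 10 above 0, a median log2 fold change of -0.03, 2 markers higher and 1 lower. None was higher with scaling to *Tbp*, the epidermis score as a covariate or S451 and S458 as the only vehicle mice. Without S453 or S454 1 rose, and none fell without S451, S453, S454, S455, S458, S462 or S463. Of 9 Schwann cell markers 1 fell (3 with only the HSALR mice in the fit and 2 without S452), with sums of 122.6 to 290.3 CPM after vehicle and 114 to 191 CPM after AICAR. Macrophage markers rose in 3 of 20 cases (15.0%, near the share of all genes, and 1 with library-size scaling, scaling to *Tbp* or S451 and S458 as the only vehicle mice) and fell in 1 (in none without S451, S452, S453, S454, S458, S462 or S463), with sums of 278 to 394 and 306 to 492 CPM, and *Cd14*, a receptor for bacterial lipopolysaccharide, rose most (3.71 ± 0.504 to 8.91 ± 1.5 CPM, 1.26). No neutrophil, lymphocyte or adipocyte marker passed the test (without S458 2 adipocyte markers and without S462 1 rose, and without S451 1 lymphocyte marker fell), at sums of 1.44 to 1.99, 0.826 to 1.82 and 316 to 501 CPM after AICAR and 0.897 to 6.29, 1.36 to 2.25 and 222.4 to 434 CPM after vehicle. None of the 6 erythroid markers passed either, with sums of 273 to 2832 CPM after vehicle and 475 to 1037 CPM after AICAR, but 5 fell with S451 and S458 as the only vehicle mice. Of 38 interferon-inducible genes only *Rtp4* fell (-0.48, lost in 4 of 10 fits without 1 HSALR mouse), and 1 rose without S458 or S460. *Rtp4* was not called with the epidermis score as a covariate, nor was *Rtp4* with S451 and S458 as the only vehicle mice.

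Of 29 genes of branched-chain amino acid and glutamine metabolism, 7 rose and 7 fell (24.1% each, against 13.7% and 13.0% of all genes), with 3 higher and 10 lower with library-size scaling, 3 higher with scaling to *Tbp* and 4 higher with the epidermis score as a covariate. The aminotransferase *Got2* rose (0.60), and the falls included 3 genes of branched-chain breakdown, *Bcat2* (-0.34), *Dbt* (-0.55) and *Ppm1k* (-0.76), the phosphatase that activates the dehydrogenase. *Bckdha* (0.04) and glutamine synthetase *Glul* (-0.34) did not pass (adjusted p = 0.706 and 0.0682). Of 32 genes of cholesterol and fatty acid synthesis, 2 rose and 5 fell (6.25% and 15.6%), or 9 fell without S460 and 3 without S451, S453, S458, S462 or S463. None fell and 3 rose with the epidermis score as a covariate, and 2 fell with S451 and S458 as the only vehicle mice. *Elovl6*, a fatty acid elongase, was at 16.4, 4.74, 21.6, 7.64 and 9.68 CPM after vehicle and 2.29, 2.38, 2.29, 2.43 and 2.92 CPM after AICAR. Vehicle mice were spread more than 4-fold while AICAR mice were almost equal (-2.29 ± 0.53 (SE), adjusted p = 0.00538), its Spearman correlation with the summed epidermis markers over the 8 vehicle libraries of both genotypes was 0.74, and the call was lost with the epidermis score as a covariate (adjusted p = 0.0632). The sterol transporter *Abca1* rose (0.61), and *Srebf1* (-0.16) and *Fasn* (-0.59) did not pass (adjusted p = 0.339 and 0.428). Of 87 cytosolic ribosomal proteins, 4 rose and 7 fell (2 rose without S453 or S463, and 3 or 4 fell without S452, S453, S454, S458, S460, S462 or S463) within a range of -0.25 to 0.26 on the log2 scale, and 18 fell and 1 rose with library-size scaling, whereas none fell with the epidermis score as a covariate or S451 and S458 as the only vehicle mice. These genes have many processed copies, which makes their counts uncertain.

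The AICAR effect was next compared between HSALR and control mice, which share no animals. In control mice 2039 of 15487 genes passed the test (13.2%), 1301 higher (8.4%) and 738 lower (4.77%). This split depended on the scaling, with 2028 higher and 122 lower with scaling to *Tbp*, and 945 higher and 1149 lower with upper-quartile scaling. Of the 2114 genes that rose in HSALR mice, 1910 had a log2 fold change of the same sign in control mice (90.4%) and 863 rose there by the test. Of the 1842 genes that fell in HSALR mice and were not set apart as epidermal, 1492 had the same sign (81.0%) and 349 fell by the test. Over all 15487 genes the sign was shared by 68.0%. Across the 15220 genes not set apart, the log2 fold changes of the genotypes had a Pearson correlation of 0.512 and a Spearman correlation of 0.497, as a description, since genes are not independent replicates. Respiratory chain subunits rose in 27 of 83 cases in control mice with none lower (median 0.20), glycolysis genes in 12 of 24 with none lower (median 0.31) and lysosomal genes in 10 of 45 with none lower (median 0.05). Chaperones and collagen chains, which mostly fell in HSALR mice where called, differed there. Of 41 chaperones 3 rose and 2 fell in control mice (median 0.08), and of 43 collagen chains 3 rose and 1 fell (median -0.08). *Ifi30* was at 9.2, 8.12 and 7.5 CPM after vehicle and 127, 155 and 227 CPM after AICAR in control mice, and *Nsun2* at 71.8, 67.2 and 75.7 CPM and 248, 299.6 and 369 CPM. Their differences between genotypes did not pass the test (-0.16 and 0.02 on the log2 scale, adjusted p = 0.788 and 0.975).

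**Figure D4:**
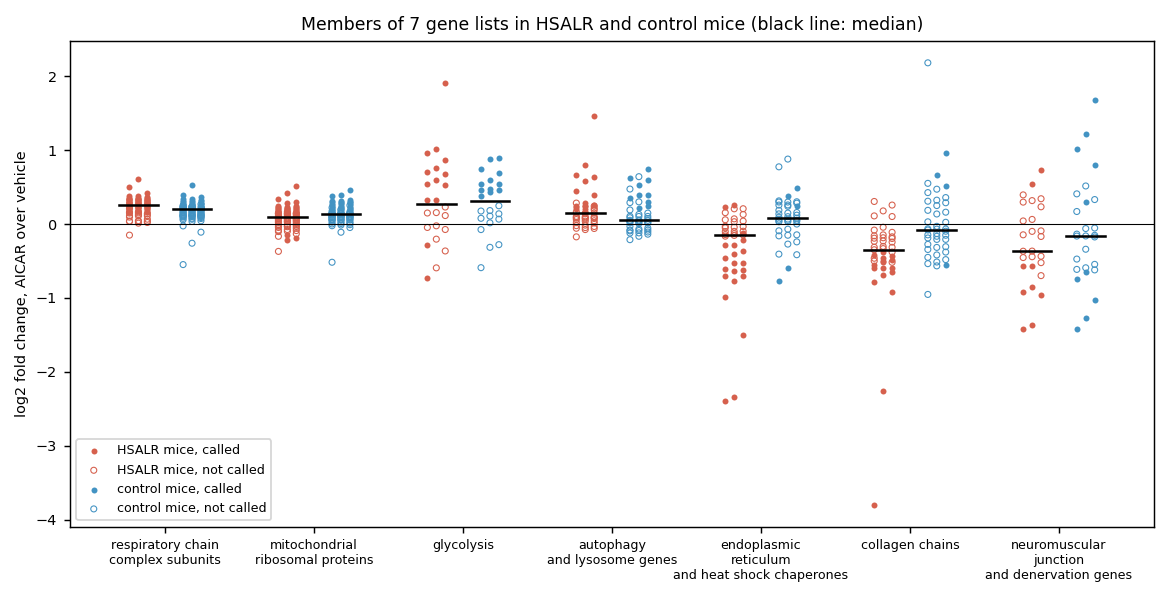
Log2 fold change of AICAR over vehicle for each tested member of 7 gene lists, in HSALR mice (red) and control mice (blue), with filled points for members called by the test, open points for the others and a black line at the median. Respiratory chain medians are 0.25 and 0.20, chaperone medians -0.15 in HSALR and 0.08 in control mice, and collagen medians -0.35 and -0.08.

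The difference itself passed the test for 107 genes (0.691%), 75 with a lower effect in HSALR than in control mice and 32 with a higher one. This balance was 375 lower and 6 higher with scaling to *Tbp*, and 40 and 41 without the control mouse S449. For 85 of the 107 the effects had opposite signs, which choosing genes by a difference favours. Over all genes tested the sign was shared by 68.0%. *Atf3*, a transcription factor of acute stress, was at 208, 255, 146, 102 and 108 CPM after vehicle and 61.4, 41.3, 82.4, 46.5 and 50.8 CPM after AICAR in HSALR mice, and at 7.63, 22.3 and 11.2 CPM and 19.2, 34.1 and 52.6 CPM in control mice. It fell in HSALR mice (-1.54 ± 0.34 (SE), adjusted p = 0.00381), had a log2 fold change of 1.36 in control mice (adjusted p = 0.0541), and the difference was -2.90 (adjusted p = 0.029). *Tnfrsf12a*, the receptor of the cytokine TWEAK in damaged muscle, had a like pattern, at 108, 126, 101, 86.5 and 63.8 CPM and 39.2, 27.4, 48, 26.2 and 26.1 CPM in HSALR mice and 6.77, 18.6 and 11 CPM and 18.9, 17.8 and 27.6 CPM in control mice. Its difference between genotypes was -2.36 (adjusted p = 0.0251). *Hspb1* fell by 1.51 in HSALR mice and was at -0.27 in control mice, where it stood at 41.4, 58.6 and 67.7 CPM after vehicle and 45.2, 45.3 and 48.5 CPM after AICAR (difference -1.23, adjusted p = 0.03). *Tceal7*, an X-linked gene, was at 60.2, 74.9, 68, 77.8 and 69.5 CPM after vehicle and 16.1, 21.5, 18.2, 17.6 and 17.2 CPM after AICAR in HSALR mice. In control mice it was at 22.9, 20.3 and 15.9 CPM and 15.1, 11.3 and 12.1 CPM, so the fall was larger in HSALR mice (-1.95 against -0.62, difference -1.33, adjusted p = 0.00582). List members for which the difference also passed included *Azin1* (-1.20), *Srxn1* (-1.15), *Crem* (-1.07) and *Vldlr* (0.90), and among the 8 largest differences were *Nmnat2* (-2.31), *Epgn* (-2.52), *Dtl* (-2.04), *Vash2* (-1.99), *Trim66* (2.04) and *Clca4a* (-4.81). This number of calls depended on single mice, from 15 without the control mouse S448 to 371 without the HSALR mouse S460, and was 536 with DESeq2 and 30 with the epidermis score as a covariate.

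Levels in vehicle-treated control mice were set beside those of HSALR mice for 7 genes chosen after their values were seen. These values share the vehicle-treated HSALR mice with the comparison above and are given without a test. *Tceal7* was at 70.1 ± 6.81 CPM in HSALR mice after vehicle, 18.1 ± 2.05 CPM after AICAR and 19.7 ± 3.58 CPM in vehicle-treated control mice (n = 3). *Prkab2* was at 306 ± 40.7, 505 ± 32 and 593 ± 57.5 CPM in the same order, *Pfkfb3* at 102 ± 37.7, 382 ± 165 and 533 ± 105 CPM, and *Hspb1* at 220.5 ± 35.7, 77.6 ± 14.9 and 55.9 ± 13.3 CPM. For these 4 genes the mean after AICAR lay nearer to that of vehicle-treated control mice than the mean after vehicle did. *Clcn1* rose part of the way, and *Prkag3* and *Fbxo32* moved away from or past the control level. *Clcn1* was at 86.6 ± 12, 107 ± 4.32 and 174 ± 17.6 CPM, *Prkag3* at 175 ± 32.1, 59.9 ± 13.6 and 189 ± 41 CPM, and *Fbxo32* at 325 ± 69.3, 951 ± 363 and 539 ± 132 CPM.

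Epidermal genes were set apart because keratins and cornified envelope proteins are products of skin and not of muscle. The 23 epidermis markers, among them *Krt5*, *Krt14*, *Krt1* and *Lor*, summed to 29.9, 110.4, 495, 63.5 and 195 CPM in the vehicle-treated HSALR mice and to 17, 19.5, 24.2, 13.2 and 12.2 CPM after AICAR, and all vehicle mice were higher than all AICAR mice. In control mice the sums were 11.6, 15.1 and 228 CPM after vehicle and 16.8, 273 and 40.8 CPM after AICAR, so that 1 vehicle and 2 AICAR mice of the controls reached the range of the HSALR vehicle mice. Of these, the vehicle mouse S450 and the AICAR mouse S448 had 925 and 1581 *Krt14* counts and a count for every marker. The AICAR mouse S449 had 1 *Krt14* count and 13 markers without a count, as in the AICAR-treated HSALR mice. *Krt14* had 6, 488, 2172, 245 and 713 counts in the vehicle-treated HSALR mice and 1, 0, 0, 3 and 0 after AICAR, and between 9 and 14 of the 23 markers had no count in the AICAR mice, against 3 in S451 and none in the other vehicle mice. Of these markers 22 were called lower and of the wider set of epidermal genes 69 of 98 tested (24 to 45 without S453, S454, S455, S459, S462 or S463). The 22 calls fell to between 8 and 14 without S453, S454, S455, S459, S462 or S463, to 1 with limma voom, which called 16 of the wider set, to 4 with at least 10 counts in every library, to 9 with only the HSALR mice in the fit, to 14 with robust dispersion, and to 0 with the marker score as a covariate or with S451 and S458 as the only vehicle mice. Adding the genes whose level followed the marker sum over the 8 vehicle libraries of both genotypes (Spearman rho of at least 0.9) gave 165 of the 2007 lower calls and 3 of the 2114 higher calls, and 160 of the 485 falls of at least 2-fold. The remaining 1842 lower calls were not set apart. With the epidermis score as a covariate 1258 genes were higher and 1067 lower, and against the vehicle mice S451 and S458 alone, the pair lowest in these markers, 1288 were higher and 941 lower.

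**Figure D5:**
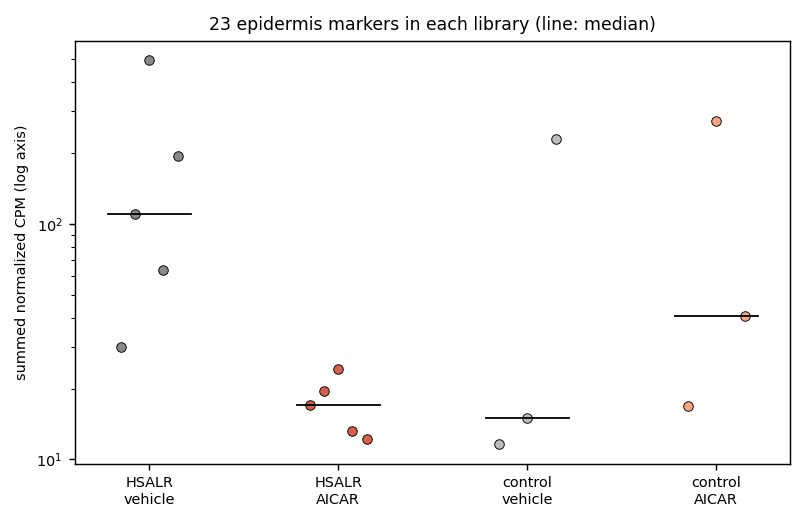
Summed normalized CPM of 23 epidermis markers in each library on a log axis, with a line at the median of each group, for HSALR mice after vehicle and AICAR (n = 5 each) and control mice after vehicle and AICAR (n = 3 each). The vehicle-treated HSALR mice range from 29.9 to 495 and the AICAR-treated ones from 12.2 to 24.2, and control mice of both treatments range from 11.6 to 273.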

How the data were processed

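RNA was sequenced from gastrocnemius muscle of 16 mice with stranded mRNA libraries and single-end reads. The authors aligned reads with STAR 2.5.2a to mm10, per the labels' processing notes, and deposited raw counts per RefSeq gene, in which a read with several equally good locations was assigned to one of them. The counts were used as deposited, and 24374 of 24454 gene identifiers matched RefSeq GRCm38.p6, the source of names, coordinates and promoters. Library totals were 64890014 to 81987726 counts over the HSALR mice, and p-values measure the spread between mice.

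Genes were filtered with filterByExpr over the 4 groups, which left 15487, scaled with TMM and tested with the quasi-likelihood test of edgeR 4.0.16 (R 4.3.3) in one fit of all 16 libraries with a mean per group. The contrasts were AICAR against vehicle in HSALR mice, the same in control mice, and their difference, and p-values were adjusted by Benjamini-Hochberg over all tested genes. The SE of a log2 fold change is its size divided by the square root of the F statistic. The scripts were tested on simulated data. Scaling, filter, dispersion, sample and tool choices (limma 3.58.1, DESeq2 1.42.0), leaving out each mouse, and the epidermis marker score as a covariate were tried as alternatives. Using S451 and S458 as the only vehicle mice was added after seeing the data. The members and lists were chosen with earlier results of these data known.

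Genes were named by a rule: core members of each list, up to 4 called members per list and direction with the largest change at 1 CPM or more, the 12 largest non-overlapping rises and falls with a mean count of at least 50, leaving out epidermal genes and genes with a Spearman rho of at least 0.9 with the epidermis markers over the 8 vehicle libraries, the 8 smallest p-values, and the 8 largest called differences between genotypes. *Hsph1*, *Hspd1*, *Hspe1*, *Atp5g3*, *Mcoln1*, *Atp6v0d1*, *Cd14*, *Scx* and *Pax7*, and the scaling gene *Tbp*, fall outside it and were chosen after their values were seen. Some genes that the rule names are not reported here.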

Additional observations from a re-analysis of the deposited data

Results flagged for a closer look

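A value that stood far from the other 4 of its group by Dixon's criterion was found in 7 of 88 groups tested, where chance gives about 4.4. In AICAR-treated HSALR mice these were *Rrad* in S460 (26.1 CPM, the other 4 between 6.55 and 8.32), *Mbnl2* in S460 (286 CPM, the others between 344 and 354), *Hsph1* in S463 (53.5 CPM, the others between 61.5 and 62.3) and *Elovl6* in S463 (2.92 CPM, the others between 2.29 and 2.43). In vehicle-treated HSALR mice they were *Chrng* in S458 (1.33 CPM, the others between 0.771 and 0.821), *Myog* in S451 (31.5 CPM, the others between 21.2 and 23.8) and *Clcn1* in S459 (108 CPM, the others between 79.6 and 85.8). Of the 7 values, 2 belonged to S460 and 2 to S463.

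For 15 named genes the test of the difference in AICAR effect between HSALR and control mice passed. On the log2 scale (HSALR minus control) the difference was -4.81 for *Clca4a*, -2.90 for *Atf3*, -2.52 for *Epgn*, -2.36 for *Tnfrsf12a*, -2.31 for *Nmnat2*, -2.04 for *Dtl* and -1.99 for *Vash2*. It was -1.33 for *Tceal7*, -1.23 for *Hspb1*, -1.20 for *Azin1*, -1.15 for *Srxn1* and -1.07 for *Crem*, and it was above 0 for *Trim66* (2.04), *Vldlr* (0.90) and *Ubl4a* (0.39). *Clca4a* did not pass in HSALR mice by itself (-0.67, adjusted p = 0.234).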

How the results depend on the processing

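The number of genes that differed between AICAR and vehicle in HSALR mice (4121) lay between 2768 and 4579 under other scalings, filters, dispersions, sample sets and tools, and between 3146 and 4301 on leaving out 1 of the 16 mice. It was 2325 with the epidermis marker score as a covariate and 2229 with S451 and S458 as the only vehicle mice, an alternative chosen after seeing the data that also has fewer samples. The control count (2039) was 1164 with only the 2 groups compared and 1143 to 2186 on leaving out 1 mouse, with 1344 without S448, 1143 without S449 and 1214 without S445. The number of differences between genotypes (107) was 381 with scaling to *Tbp*, 536 with DESeq2, 322 with the likelihood ratio test, 30 with the epidermis score, 11 with S451 and S458 as the only vehicle mice, and 15 to 371 on leaving out 1 mouse. The cause was not tested. DESeq2 kept all 206 calls of named genes, library-size scaling lost 16, limma voom 7, leaving out 1 HSALR mouse between 9 and 22, and 118 were kept in every alternative. Scaling to *Tbp* lost 47, the epidermis score 48 and S451 and S458 as the only vehicle mice 53, most of those that the report describes being named there, and the score reversed *Perp*, an epidermal adhesion gene and p53 target, to 0.28. Another 82 values of genes that were not called changed sign. List counts that moved by over 1.5 times on leaving out a mouse are given in the report, and beside them the slow fibre genes lower were 2 without S459, the fast fibre genes higher 2 without S451 and the immediate early genes higher 2 without S462. No paired analysis was possible because each mouse has its own number and no number is shared between groups. Depth limits genes with few counts, such as *Chrng* and the genes near 1 CPM.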
